A study of Rattus norvegicus with 20 samples.

Results

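The glucocorticoid receptor gene Nr3c1, the hormone-activating enzyme gene Hsd11b1 and 8 genes known to be induced through the receptor were examined in rat gastrocnemius, a calf muscle made mostly of fast fibres. These 10 genes (Nr3c1, Hsd11b1, Fkbp5, Klf15, Tsc22d3, Zbtb16, Sgk1, Glul, Ddit4 and Cebpd) were taken by symbol from the 32495 named genes of the count table, and all 10 were among the 11716 genes with enough counts to be tested. RNA was sequenced from female Fischer 344 rats, all of which carried an implanted Ward colorectal carcinoma. TUMOUR STD rats (5 libraries) ate the standard diet and received no chemotherapy, CHEMO STD rats (7 libraries) received repeated cycles of CPT-11 (irinotecan) followed by 5-FU on the standard diet, and CHEMO FO rats (8 libraries) received the same drugs on a diet into which fish oil, a source of EPA and DHA, was introduced when the chemotherapy began. Muscle was collected a week after the last cycle. Tumour-free rats and rats given fish oil without chemotherapy were not analysed here, the tumour is a transplanted line, and the time of day of collection, which matters for a hormone with a daily rhythm, is not given in the sources used here.

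Glucocorticoids, chiefly corticosterone in rats, reach muscle from the adrenal cortex and are also regenerated inside cells from an inactive form by the enzyme that Hsd11b1 encodes. The hormone binds the receptor NR3C1, which then leaves its chaperones, enters the nucleus and regulates genes at glucocorticoid response elements, paired hexamers separated by a short spacer, many of which lie far from the gene start. In muscle, sustained glucocorticoid signalling is known for promoting protein breakdown, amino acid release and loss of fast fibre mass. It also restrains itself, since FKBP5 lowers the receptor's affinity for the hormone.

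The libraries held 3020821 to 10857477 counts on named genes, with a median of 6200550 in TUMOUR STD, 4944773 in CHEMO STD and 4634605.5 in CHEMO FO, so that the fish oil group was the shallowest. CHEMO STD libraries 1 and 2 were far closer to each other than any other pair within a group (chi-square per gene of 2.23, where the 58 remaining within-group pairs gave 13.7 to 255). They were summed to CHEMO STD 1+2, which leaves 19 samples with n = 5, 6 and 8. Levels are given as CPM, read counts scaled to a common library size with TMM factors. All of the 8 skeletal muscle genes in the table were expressed, summing to 125000 to 244000 CPM per sample. Of the samples that stood apart, CHEMO FO 18 had the lowest summed level of these muscle genes (125000 CPM against a group median of 218000) and the highest of 10 macrophage genes (795 CPM against a group median of 326). It was the highest sample of its group for 26.7% of all tested genes, while the other CHEMO FO samples were so for 7.42% to 16.2%. TUMOUR STD 10 held 607 CPM of 10 skin genes, where its group's median was 7.06. Markers of other cells also differed between groups. In CHEMO FO versus CHEMO STD, 6 of 6 tested myelin and Schwann genes were lower (4 called, median log2 fold change -0.73) and 4 of 4 blood genes (0 called by edgeR and 0 at an unadjusted p below 0.05, median -0.79). In CHEMO STD versus TUMOUR STD, 6 of 6 smooth muscle genes were lower (4 called, median -0.84) and 8 of 8 slow fibre genes (2 called, median -0.49). Of all tested genes, 1.05% were called lower in CHEMO FO versus CHEMO STD and 1.45% in CHEMO STD versus TUMOUR STD. The part of other cells in the results was not tested, and in bulk tissue fewer cells of a type cannot be told apart from less RNA per cell.

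The promoters of Glul and Tsc22d3 are printed because they hold letters read by the receptor, and that of Fkbp5 because its level followed that of Glul most closely. They are the 250 bases before a RefSeq transcript start in GRCr8, the current rat build, read 5′ to 3′ on the gene's strand, with capitals marking a match to ACANNNTGT, the core shared by glucocorticoid response elements.
Glul, start 1 (chr13:68519250-68519499, + strand): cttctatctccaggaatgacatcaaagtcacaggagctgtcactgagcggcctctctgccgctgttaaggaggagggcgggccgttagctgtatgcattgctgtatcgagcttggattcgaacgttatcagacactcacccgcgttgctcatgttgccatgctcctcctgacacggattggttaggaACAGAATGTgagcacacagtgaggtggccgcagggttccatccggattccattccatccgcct
Tsc22d3, start 2 (chrX:109065431-109065680, - strand): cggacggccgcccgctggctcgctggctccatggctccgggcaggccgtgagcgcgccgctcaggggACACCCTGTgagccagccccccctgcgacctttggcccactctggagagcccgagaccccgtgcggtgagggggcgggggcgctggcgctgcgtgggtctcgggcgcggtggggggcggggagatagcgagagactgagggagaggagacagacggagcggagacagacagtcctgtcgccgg
Fkbp5 (chr20:6543556-6543805, - strand): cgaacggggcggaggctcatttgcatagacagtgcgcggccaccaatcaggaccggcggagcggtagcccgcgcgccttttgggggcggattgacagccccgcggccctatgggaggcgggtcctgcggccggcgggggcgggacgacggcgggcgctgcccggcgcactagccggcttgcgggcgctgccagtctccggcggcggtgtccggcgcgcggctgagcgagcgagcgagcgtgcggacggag
The core began at -63 in Glul and at -183 in Tsc22d3, and Fkbp5 had none. The other start of Glul lay 56566 bases downstream and had no match, nor did starts 1 and 3 of Tsc22d3. Over windows of 300 bases reaching 50 bases past the start, 13 windows were found for 7 of the 10 genes, with none held for Hsd11b1, Zbtb16 and Cebpd. The core, searched on both strands, was in 2 of the 13 windows against 6.86% of all 33469 windows. The hexamer TGTTCT was in 0 of 13 against 20.7% of all windows, and the complete element in 0 against 0.0149%. The E-box CACGTG, the letters read by clock factors, was in 1 of the 13, that of Klf15 at -101, against 6.42% of all windows. These matches describe letters near starts and say nothing of distal elements.

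Nr3c1, the receptor itself, was measured with 341 to 2209 counts per sample and stood at similar levels in the 3 groups. In TUMOUR STD it was 184, 160.9, 81.41, 152.9 and 129.5 CPM in samples 8 to 12. In CHEMO STD it ranged from 111.5 to 202.5 CPM with a median of 172.9. In CHEMO FO it ranged from 110.2 to 164.8 CPM with a median of 141.4. The groups overlapped throughout, and the lowest sample in each was TUMOUR STD 10, CHEMO STD 1+2 and CHEMO FO 18. The log2 fold change was 0.23 (SE 0.181) in CHEMO STD versus TUMOUR STD, -0.24 (SE 0.161) in CHEMO FO versus CHEMO STD and -0.01 (SE 0.17) in CHEMO FO versus TUMOUR STD. None exceeded the spread between samples (two-sided exact permutation p = 0.318, 0.141 and 0.877).

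Hsd11b1, which regenerates active hormone inside cells, likewise showed no difference beyond the spread. It was 33.53, 21.58, 17.68, 23.46 and 12.77 CPM in TUMOUR STD 8 to 12, from 17.01 to 37.51 CPM (median 26.28) in CHEMO STD and from 15.84 to 33.45 CPM (median 22.13) in CHEMO FO. The ranges of the 3 groups largely coincided. The largest of its 3 log2 fold changes was 0.29 (SE 0.239, exact permutation p = 0.268) in CHEMO STD versus TUMOUR STD.

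Fkbp5, the co-chaperone that feeds back on the receptor, was at similar levels in most samples and very high in a few. In TUMOUR STD it was 18.07, 14.82, 41.38, 16.99 and 26.61 CPM in samples 8 to 12, and in CHEMO STD it ranged from 19.39 to 34.8 CPM with a median of 25.89. CHEMO FO had almost the same median, 24.91 CPM, but ranged from 16.5 to 111.5 CPM, its highest samples being CHEMO FO 15 at 111.5 and CHEMO FO 18 at 67.89. The group means, 39.18 ± 33.62 CPM in CHEMO FO (SD, n = 8) and 26.19 ± 6.298 CPM in CHEMO STD (SD, n = 6), therefore differed where the medians did not. The log2 fold change of 0.56 (SE 0.376) in CHEMO FO versus CHEMO STD did not pass the test (exact permutation p = 0.55), nor did 0.73 (SE 0.399, exact permutation p = 0.354) in CHEMO FO versus TUMOUR STD. Leaving out TUMOUR STD 10, the highest of its group, raised the latter to 1.04 and past the thresholds, whereas leaving out CHEMO FO 15 lowered it to 0.317 and the difference from CHEMO STD to 0.145.

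Klf15, a transcription factor that drives amino acid catabolism in muscle, differed little. It was 29.54, 38.69, 33.52, 26.69 and 47.37 CPM in TUMOUR STD 8 to 12, from 26.7 to 48.55 CPM (median 30.64) in CHEMO STD and from 21.67 to 62.53 CPM (median 35.74) in CHEMO FO. CHEMO FO held 4 samples from 43.62 to 62.53 CPM and 4 from 21.67 to 27.85 CPM, while CHEMO STD 1+2 was the only sample of its group in the higher range. Its log2 fold changes lay between -0.07 and 0.16 over the 3 comparisons, and the exact permutation p values between 0.65 and 0.92.

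Tsc22d3, which encodes the anti-inflammatory leucine zipper protein GILZ, was higher in CHEMO FO than in TUMOUR STD. In TUMOUR STD it was 128.9, 140.2, 149.6, 182 and 144.2 CPM in samples 8 to 12. CHEMO STD ranged from 141.1 to 211.4 CPM (median 184.8) and CHEMO FO from 152.5 to 652.9 CPM (median 180.6). The extreme sample was CHEMO FO 18, 2.69 times the next, and among the rest the 2 chemotherapy groups overlapped almost fully. The log2 fold change in CHEMO FO versus TUMOUR STD was 0.74 (SE 0.271, edgeR p = 0.0116, adjusted p = 0.486; exact permutation p = 0.049). Without CHEMO FO 18 it was 0.37 (SE 0.131), under the fold threshold, with an exact permutation p of 0.0227. Against CHEMO STD it was 0.46 (SE 0.253) with that sample and 0.08 without it, neither passing. CHEMO STD against TUMOUR STD gave 0.28 (SE 0.282, exact permutation p = 0.0628).

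Zbtb16, a zinc finger transcription factor and a sensitive glucocorticoid target, was upregulated in CHEMO FO versus TUMOUR STD at the unadjusted thresholds. It was 27.28, 40.78, 35.17, 33.33 and 30.87 CPM in TUMOUR STD 8 to 12, from 26.62 to 63.34 CPM (median 40.43) in CHEMO STD and from 29.86 to 105.4 CPM (median 60.76) in CHEMO FO. In CHEMO FO, 5 samples lay above the highest TUMOUR STD sample and 3 within its range. The log2 fold change was 0.85 (SE 0.262, edgeR p = 0.00352, adjusted p = 0.486; exact permutation p = 0.042). It was 0.78 (SE 0.257) without CHEMO FO 18 and still called, with an exact permutation p of 0.0606. Against CHEMO STD the difference was 0.49 (SE 0.244, exact permutation p = 0.183), and CHEMO STD against TUMOUR STD gave 0.36 (SE 0.273).

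Sgk1, a serum- and glucocorticoid-induced kinase, was 35.1, 30.93, 45.46, 39.15 and 38.68 CPM in TUMOUR STD 8 to 12. It ranged from 27.54 to 43.42 CPM (median 32.72) in CHEMO STD and from 28.11 to 108.7 CPM (median 40.22) in CHEMO FO. CHEMO FO 18 was again far above the next sample, 1.88 times its level, and the groups overlapped. Its log2 fold change in CHEMO FO versus CHEMO STD was 0.50 (SE 0.227, edgeR p = 0.0373, adjusted p = 0.974, exact permutation p = 0.145). The fold of 1.42 was below the fold threshold. Leaving that sample out gave 0.22 (SE 0.148).

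Glul, the glutamine synthetase that supplies the glutamine muscle exports, rose in CHEMO FO versus CHEMO STD at the unadjusted thresholds. It was 394.4, 459, 910.1, 451.7 and 985.2 CPM in TUMOUR STD 8 to 12, from 422.9 to 869.6 CPM (median 586.1) in CHEMO STD and from 514 to 2089 CPM (median 787.1) in CHEMO FO. CHEMO FO 18 at 2089 CPM and CHEMO FO 15 at 1790 CPM stood well above the next sample, CHEMO FO 16 at 993.5 CPM. The log2 fold change was 0.72 (SE 0.317, edgeR p = 0.033, adjusted p = 0.974), and the exact permutation test gave p = 0.141. It was 0.48 (SE 0.281) and no longer called without CHEMO FO 18, and the call was also lost without CHEMO FO 15 or without CHEMO STD 3, 5 or 6.

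Ddit4, which restrains mTORC1 signalling, had few counts, 2 to 117 per sample, and the precision of its levels is limited by that. It was 0.5212, 3.481, 4.954, 2.75 and 1.065 CPM in TUMOUR STD 8 to 12, from 0.6358 to 5.905 CPM (median 3.104) in CHEMO STD and from 2.273 to 8.161 CPM (median 3.673) in CHEMO FO. The lowest values were in TUMOUR STD 8 and 12 and CHEMO STD 5 and 6, which were lower than every CHEMO FO sample. Its log2 fold change in CHEMO FO versus TUMOUR STD was 0.75 (SE 0.448, exact permutation p = 0.0824). It was 1.14 without TUMOUR STD 10 and 1.04 without CHEMO FO 18 and TUMOUR STD 10, past the thresholds in both settings.

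Cebpd, a transcription factor induced by glucocorticoids and by inflammatory signals, gave the largest log2 fold changes of the 10 in both comparisons with TUMOUR STD. It was 4.517, 6.664, 10.98, 10.35 and 14.37 CPM in TUMOUR STD 8 to 12. In CHEMO STD it ranged from 6.676 to 43.1 CPM (median 13.7), with CHEMO STD 1+2 at 2.28 times the next sample. In CHEMO FO it ranged from 10.25 to 92.25 CPM (median 16.01), with CHEMO FO 18 at 2.52 times the next. CHEMO FO versus TUMOUR STD gave a log2 fold change of 1.595 (SE 0.527, edgeR p = 0.00605, adjusted p = 0.486; exact permutation p = 0.0412). It was 0.99 (SE 0.412) when that sample was left out, still called, with an exact permutation p of 0.048. The difference from CHEMO STD was 0.64 (SE 0.468) and came to 0.01 without that sample, whereas leaving out CHEMO STD 1+2 raised it to 1.18 and past the thresholds and lowered CHEMO STD versus TUMOUR STD from 0.96 to 0.43.

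**Figure D1:**
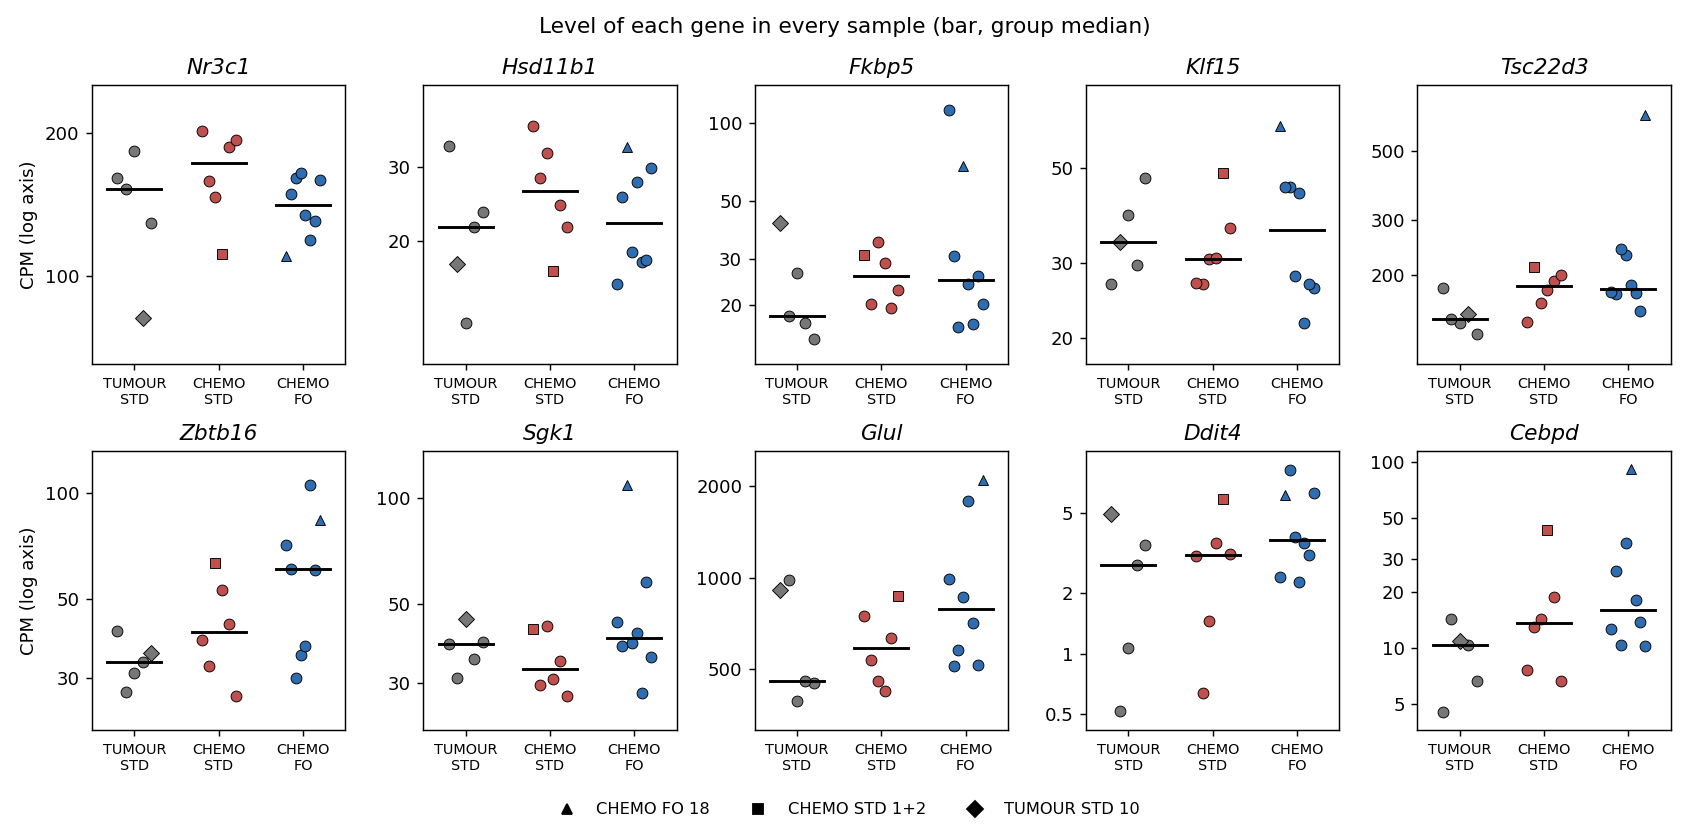
Level of each of the 10 genes in every sample, in CPM on a log axis, by group (5 TUMOUR STD, 6 CHEMO STD and 8 CHEMO FO samples), with bars at group medians and separate symbols for CHEMO FO 18, CHEMO STD 1+2 and TUMOUR STD 10. The groups overlap for every gene, and CHEMO FO 18 is the highest sample of its group for 6 genes and the lowest for Nr3c1.

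The chemotherapy effect on the standard diet, CHEMO STD versus TUMOUR STD, reached 0 of the 10 genes at the thresholds of the study's methods (unadjusted p below 0.05 and at least 1.5-fold), where 2.38% of all tested genes passed (0.93% higher and 1.45% lower). By edgeR, 0 of the 10 also had a p below 0.05 alone, and DESeq2 called 0 on all groups and Cebpd when only these groups were fitted. Of the 10, 7 were higher in CHEMO STD and 3 lower, with a median log2 fold change of 0.25, whereas the median over all tested genes was -0.002. By edgeR, Cebpd came closest, at 0.96 (SE 0.544, edgeR p = 0.0911, exact permutation p = 0.216). It passed the thresholds when CHEMO FO 18 was left out of the common fit (0.98, SE 0.417). The lowest exact permutation p was that of Tsc22d3 (0.0628). None of the 10 had groups that did not overlap, which 0.495% of all tested genes had.

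The diet effect during chemotherapy, CHEMO FO versus CHEMO STD, reached 1 of the 10 genes, Glul, where 1.66% of all tested genes passed (0.615% higher and 1.05% lower). In this comparison 8 were higher in CHEMO FO and 2, Nr3c1 and Hsd11b1, lower. The median log2 fold change was 0.49 against -0.01 over all tested genes, and it was 0.15 with 0 genes called by edgeR, and 0 at an unadjusted p below 0.05, once CHEMO FO 18 was left out. Again 0 of the 10 had groups that did not overlap (0.0683% of all tested genes).

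In CHEMO FO versus TUMOUR STD, 3 of the 10 genes were called, Tsc22d3, Zbtb16 and Cebpd, all higher in CHEMO FO, where 3.6% of all tested genes passed (1.09% higher and 2.51% lower). The median log2 fold change of the 10 was 0.69, with 9 higher and Nr3c1 near 0. Without CHEMO FO 18 the median was 0.40 and 2 genes were called (2.36% of all tested genes in that fit), and without TUMOUR STD 10 there were 6 (2.44% of all), with Fkbp5, Glul and Ddit4 added. With both of those samples left out, a setting chosen after seeing the data, 4 were called, Fkbp5, Zbtb16, Ddit4 and Cebpd, against 1.73% of all tested genes. None of the 10 separated the groups (0.324% of all tested genes did). The 3 comparisons share groups and are not independent, and p values measure the spread between libraries, which the labels do not tie to separate animals.

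No gene of the 11716 passed a Benjamini-Hochberg adjusted p of 0.05 by edgeR in any comparison, against 762, 528 and 1059 at an unadjusted p below 0.05. DESeq2 on all groups passed 0, 0 and 11 genes, and on only the groups compared 16, 0 and 5, none of them among the 10.

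**Figure D2:**
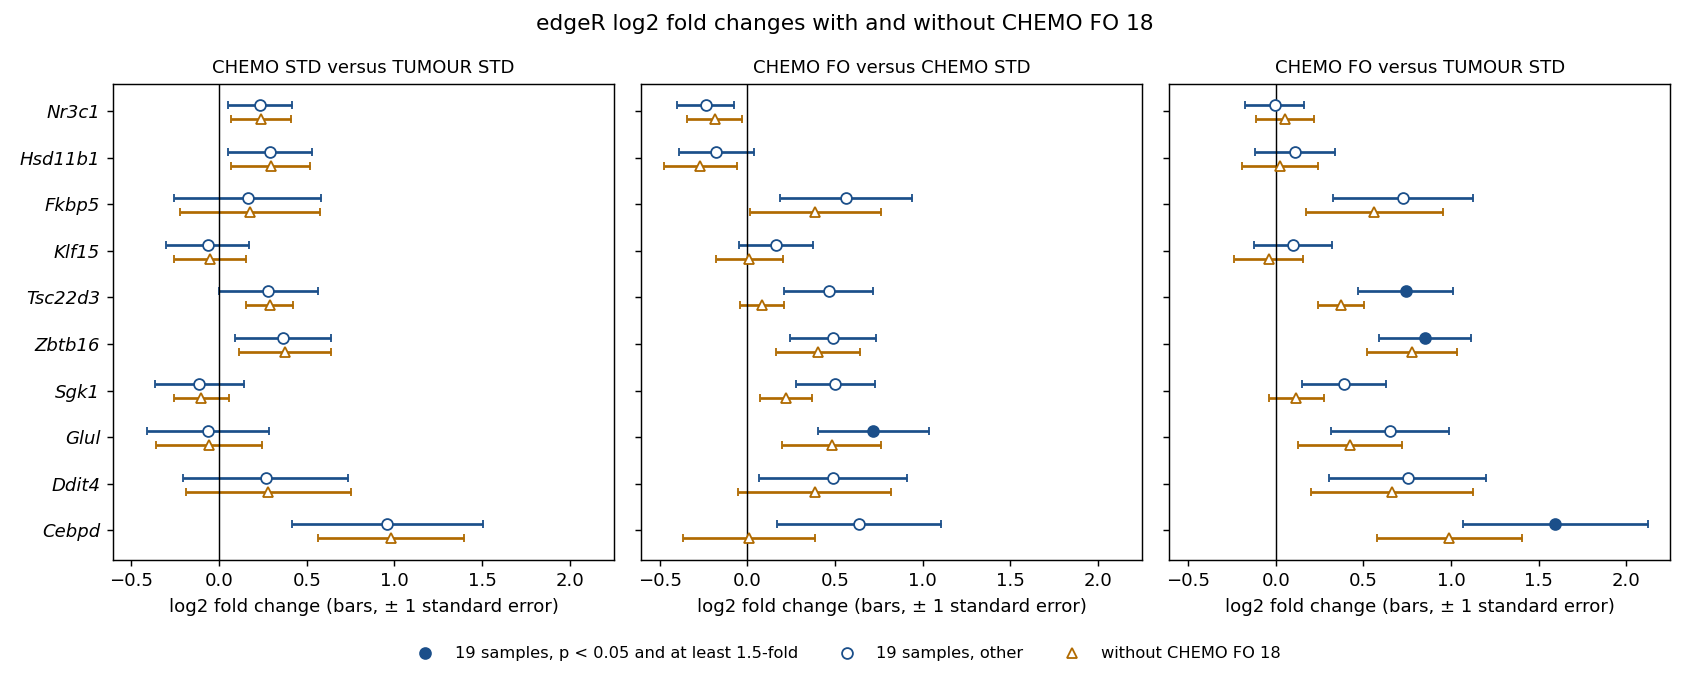
edgeR log2 fold changes (points) with 1 standard error (bars) of the 10 genes in the 3 comparisons, fitted on 19 samples (circles, filled where a gene passed p below 0.05 and 1.5-fold) and again without CHEMO FO 18 (triangles, calls not marked). Cebpd in CHEMO FO versus CHEMO STD moves from 0.64 to 0.01, while the values of CHEMO STD versus TUMOUR STD hardly move.

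Samples of one condition differed widely in these genes. The biological coefficient of variation, the spread between samples of a group beyond counting error, was 58.7% for Cebpd, 50.8% for Ddit4, 46.9% for Fkbp5 and 40% for Glul, against a median of 22.9% over all tested genes. It was 21.8% for Nr3c1, the only one of the 10 below that median. The other 5 ranged from 27.1% to 32.7%.

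The target genes varied together between samples of the same condition. After each group's mean was removed, 32 of the 45 pairs among the 10 genes were positively correlated over the 19 samples. With all tested genes, the median r of each of the 10 lay between -0.0324 (Nr3c1) and 0.0199 (Tsc22d3). How many pairs of tested genes at large would pass the tests below was not counted. By both Pearson and Spearman permutation tests within groups, 12 pairs passed a Benjamini-Hochberg adjusted p of 0.05 over the 45. These 12 include 2 negative pairs, Nr3c1 with Fkbp5 and with Glul, and the remaining pairs are positive and between targets. The closest pair was Fkbp5 and Glul, with r = 0.905 (permutation p = 1e-05, the smallest the permutations can give, adjusted p = 3e-04) and rho = 0.921 (permutation p = 1e-05, adjusted p = 0.00045). It held without the 2 samples farthest out in Fkbp5 (r = 0.878) and without CHEMO FO 18 (r = 0.888). Sgk1 and Cebpd had r = 0.856 (permutation p = 2e-05, adjusted p = 3e-04) and rho = 0.805 (permutation p = 0.00018, adjusted p = 0.00315), and r = 0.775 without the 2 farthest samples. Tsc22d3 and Sgk1 reached r = 0.885 (permutation p = 0.00041, adjusted p = 0.00308) and rho = 0.719 (permutation p = 0.00171, adjusted p = 0.0128), which came to r = 0.602 without the 2 farthest samples. Tsc22d3 and Cebpd gave r = 0.824 (permutation p = 2e-05, adjusted p = 3e-04) and rho = 0.789 (permutation p = 0.00021, adjusted p = 0.00315), and r = 0.753 without the 2 farthest. Of the 8 targets, 4 (Cebpd, Sgk1, Klf15 and Tsc22d3) also correlated with the sample's total count at an adjusted Pearson permutation p below 0.05 and none did by Spearman. For CHEMO STD 1+2 that total is the sum of 2 libraries (9449108 and 10516783 counts), above any single library. The part of depth in these pairs was not tested.

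The receptor gene varied the other way. Over the 19 samples, Nr3c1 had a negative r with each of the 8 targets, 2 of which (Fkbp5 and Glul) passed both tests, most strongly with Glul at r = -0.625 (permutation p = 0.00204, adjusted p = 0.0114) and rho = -0.647 (permutation p = 0.00299, adjusted p = 0.0192), and r = -0.599 without the 2 farthest samples. With Fkbp5 it gave r = -0.487 (permutation p = 0.0159, adjusted p = 0.0421) and rho = -0.584 (permutation p = 0.00809, adjusted p = 0.0331), and r = -0.401 without the 2 farthest. Its lowest samples, TUMOUR STD 10, CHEMO STD 1+2 and CHEMO FO 18, had Glul levels of 910.1, 869.6 and 2089 CPM, each among the top 2 of its group. Hsd11b1 had a median r of -0.01 with the other 9, whereas Cebpd had 0.663 and Glul and Klf15 0.602.

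Fewer pairs passed without the samples that stood apart, in settings chosen after seeing the data. Without CHEMO FO 18, 4 pairs passed both tests, and without CHEMO STD 1+2 as well, 3 did: Fkbp5 with Glul (r = 0.898 over 17 samples, permutation p = 7e-05, adjusted p = 0.00315, rho = 0.882, permutation p = 0.00018, adjusted p = 0.0081), Tsc22d3 with Cebpd, and Sgk1 with Cebpd. Without CHEMO FO 18, Nr3c1 with Glul had r = -0.583 (permutation p = 0.00892, adjusted p = 0.0446) and rho = -0.569 (permutation p = 0.0142, adjusted p = 0.0724). With CHEMO STD 1+2 left out as well, it had r = -0.535 (permutation p = 0.0343, adjusted p = 0.129) and rho = -0.581 (permutation p = 0.0215, adjusted p = 0.134), and Nr3c1 gave r = 0.151 with Klf15, 0.0726 with Zbtb16 and -0.0245 with Tsc22d3, so that the negative sign did not hold for all 8 targets.

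**Figure D3:**
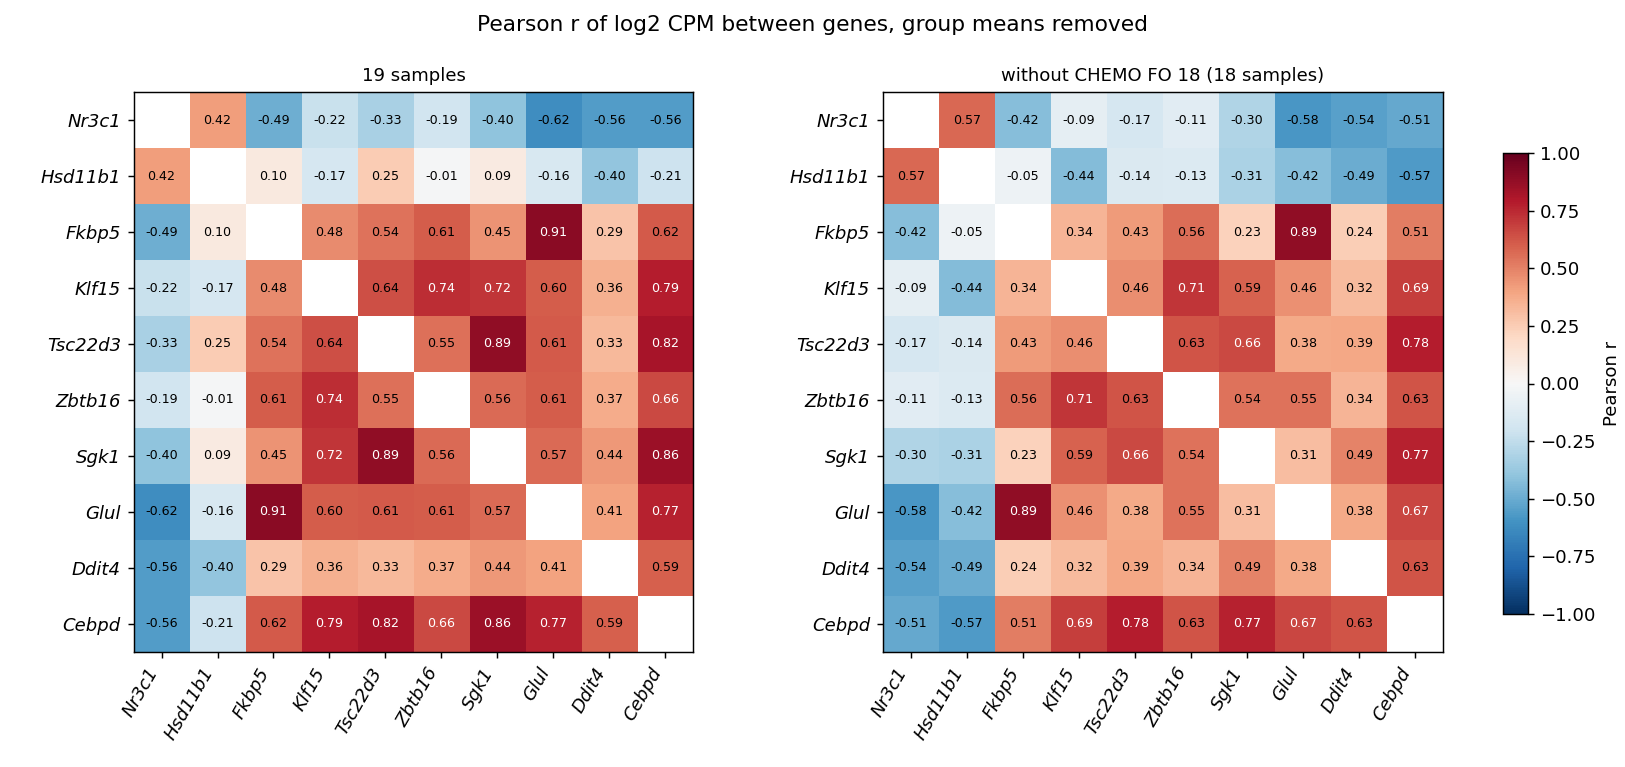
Pearson r of log2 CPM between the 10 genes after removing each group's mean, over 19 samples (left) and without CHEMO FO 18 (right), on a colour scale from -1 to 1. The target genes form a block of positive values, the row of Nr3c1 is negative for all 8 targets in both panels, and Fkbp5 with Glul stays near 0.9.

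**Figure D4:**
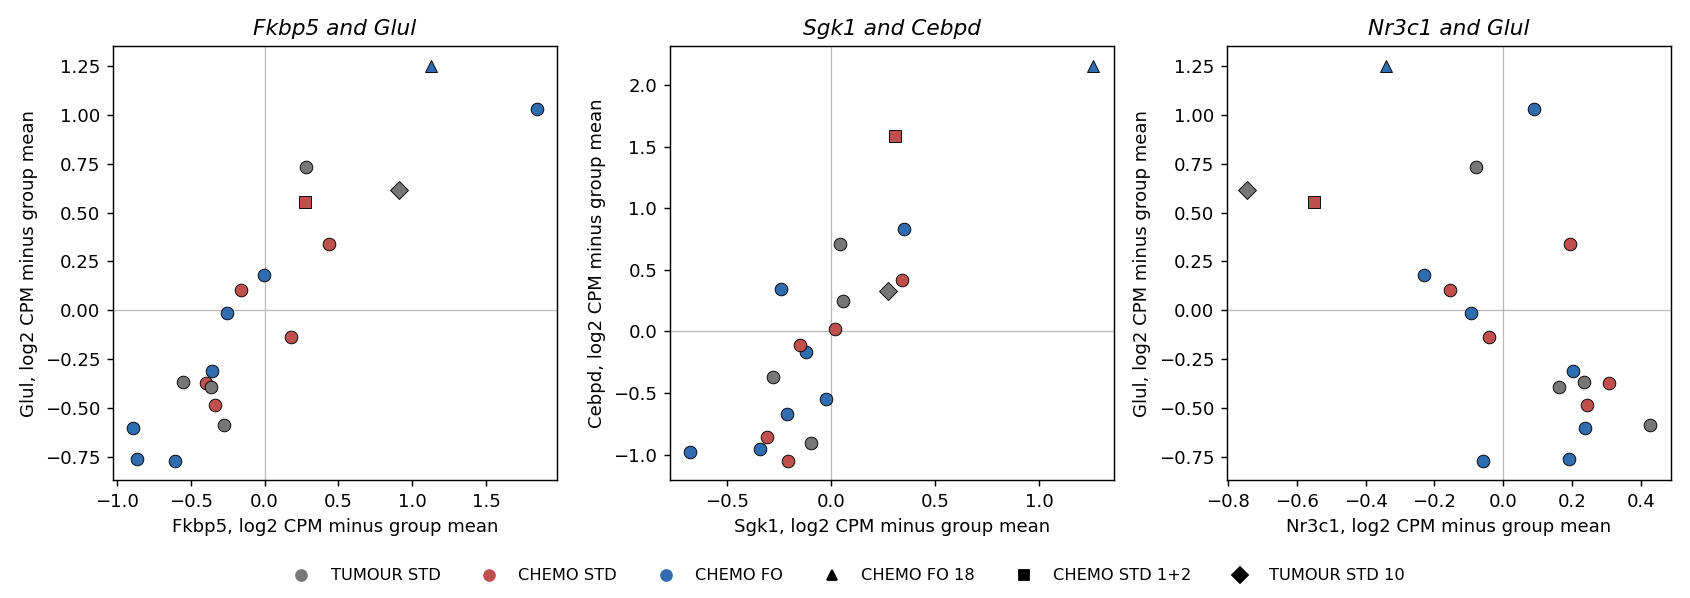
Each sample's log2 CPM minus its group mean for Fkbp5 and Glul, Sgk1 and Cebpd, and Nr3c1 and Glul, coloured by group, with symbols for CHEMO FO 18, CHEMO STD 1+2 and TUMOUR STD 10. The samples of all 3 groups lie along a common rising line for Fkbp5 and Glul, and TUMOUR STD 10 and CHEMO STD 1+2 lie at the upper left for Nr3c1 and Glul.

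Among all 11716 tested genes, the gene most like Fkbp5 in this within-group pattern was Glul (r = 0.905 over 19 samples), followed by Max (0.815) and Art3 (0.813). Glul was in turn closest to Fkbp5, then Xdh (0.904) and Cdkn1a (0.898). Klf15 was closest to Arrdc2 (0.913), Bach1 (0.858) and Gdap2 (0.843), and Zbtb16 to Pcnt (0.9), Smarcd2 (0.862) and Prr3 (0.839). For Cebpd the closest were Zfp36 (0.895), Mgp (0.879) and Pim3 (0.867), and for Ddit4 they were Trim3 (0.856), Prpf6 (0.775) and Grk5 (0.773). Those of Sgk1 were Mgp (0.91), Lgmn (0.89) and Abra (0.888), or 0.742, 0.684 and 0.675 without CHEMO FO 18. Those of Tsc22d3 were Mafk (0.935), Map1lc3b (0.915) and Mt2A (0.914), and these were 0.656, 0.582 and 0.57 without CHEMO FO 18. Nr3c1 was closest to AABR07046707.1 (0.947), Fam210a (0.94) and Dnm1l (0.937), and Hsd11b1 to Hnrnpr (0.888), Srp54a (0.877) and Xpo1 (0.872). These values describe samples that share library depth and composition and carry no test.

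Other genes of the pathway were taken from lists drawn up from general knowledge. Of 26 tested genes also known to be induced by glucocorticoids, 7 rose in CHEMO FO versus CHEMO STD at the unadjusted thresholds and 0 fell. Over all 11716 tested genes, 0.615% rose and 1.05% fell at these thresholds, and 5701 were higher. Of the 26, 22 were higher, with a median log2 fold change of 0.46. The 7 were Dusp1, a MAP kinase phosphatase (0.59, SE 0.195), Errfi1, a growth factor receptor inhibitor (0.68, SE 0.316), the cell cycle inhibitor Cdkn1a (1.57, SE 0.57), the metallothionein Mt2A (5.38, SE 1.42), the transcription factor Foxo1 (0.59, SE 0.248) and the muscle ubiquitin ligases Fbxo32 (0.92, SE 0.432) and Trim63 (1.251, SE 0.494). Their smallest adjusted p by edgeR was 0.974. CHEMO FO 18 was the highest sample of its group for 15 of the 26 (57.7%, against 26.7% of all tested genes). Mt2A was 727 CPM in CHEMO FO 18 and at most 11.1 CPM in the other CHEMO FO samples, and Trim63 was 2590 CPM there and at most 415 in the others. Without CHEMO FO 18, 22 were still higher, the median was 0.30 and 0 passed both thresholds by edgeR, 3 having an unadjusted p below 0.05 (Dusp1, Bcl6 and Lpin1, each higher).

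Against TUMOUR STD, 9 of the 26 rose in CHEMO FO and 0 fell (1.09% and 2.51% of all tested genes), with a median of 0.34. They were Pdk4, a brake on glucose oxidation (1.89, SE 0.731), Angptl4, a lipoprotein lipase inhibitor (1.54, SE 0.683), Arrdc2 (2.75, SE 0.836), the transcription factor Cebpb (0.74, SE 0.319), and Errfi1, Cdkn1a, Mt2A, Fbxo32 and Trim63. When CHEMO FO 18 was left out, 3 passed (2.36% of all tested genes did): Pdk4 (1.36, SE 0.653), Arrdc2 (1.97, SE 0.711) and Fbxo32 (0.65, SE 0.312). Arrdc2 ranged from 3.24 to 11.2 CPM in TUMOUR STD and from 4.01 to 195 CPM in CHEMO FO with a median of 26.8. In CHEMO STD versus TUMOUR STD, 1 of the 26 fell, Dusp1 (-0.88, SE 0.215, adjusted p = 0.719 by edgeR), 0 rose, and the median was 0.06. Of all tested genes, 1.45% fell and 0.93% rose there. Arrdc2 was at 1.56 (SE 0.839) there and passed without CHEMO FO 18 (1.58, SE 0.716).

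**Figure D5:**
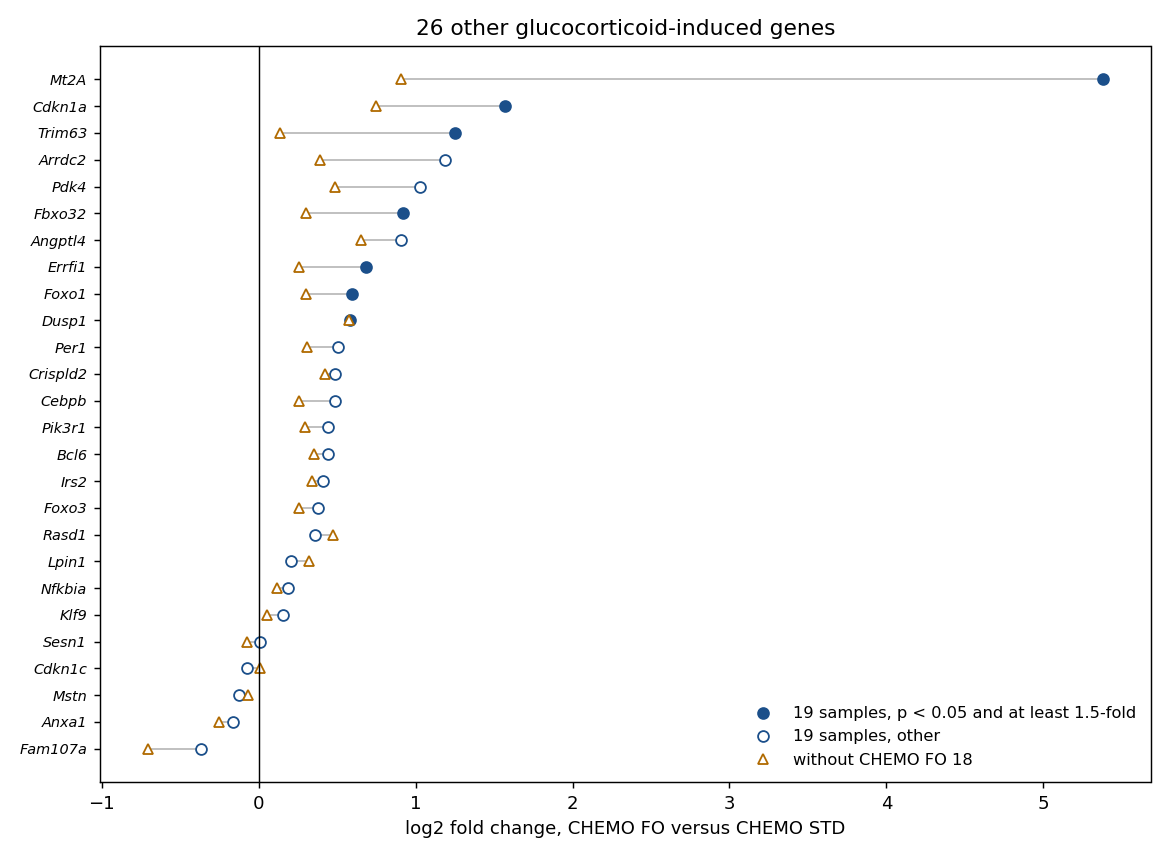
edgeR log2 fold changes in CHEMO FO versus CHEMO STD of the 26 other glucocorticoid-induced genes that were tested, on 19 samples (circles, filled where called) and without CHEMO FO 18 (triangles), joined by grey lines. Of these genes, 22 lie above 0 with and without CHEMO FO 18, Mt2A moves from 5.38 to 0.91, and Dusp1 stays near 0.58.

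The machinery of the receptor (its chaperones, cofactors, the mineralocorticoid receptor and the enzymes around its ligand) differed little. Of 14 tested genes, 0 were called by edgeR, and 0 had an unadjusted p below 0.05, in CHEMO STD versus TUMOUR STD (median -0.01) and in CHEMO FO versus CHEMO STD (median 0.19). The comparison of CHEMO FO with TUMOUR STD called 1, the chaperone gene Hsp90aa1 (1.13, SE 0.517). It stood at 114 CPM in CHEMO FO 18 and at most 16.4 CPM in the other CHEMO FO samples, and without that sample its log2 fold change was 0.12 and not called. Of 12 inflammatory genes that glucocorticoids repress, 3 were tested, and of the genes for amino acid catabolism linked to KLF15, 8 were tested. None of either list was called by edgeR in any comparison or had an unadjusted p below 0.05, with medians from -0.002 to 0.20 and from 0.006 to 0.05.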

How the data were processed

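Total RNA from gastrocnemius was depleted of ribosomal RNA and sequenced from 20 libraries. The deposited table holds raw read counts per gene, which the authors made with TopHat2 2.0.10 and Bowtie2 on rat genome build Rnor 6. The counting settings for strand and multi-mapping reads are not stated in the sources used here. The submitters' processing notes also name CASAVA 1.9, Trim Galore 0.4.1 and FastQC 0.11.4.

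The 388 rows without a gene name were left out. Libraries CHEMO STD 1 and 2 were summed (each pair compared over genes with at least 500 counts in its 2 libraries together). Counts were fitted for 19 samples with edgeR 4.0.16 in R 4.3.3 (quasi-likelihood test, TMM, default expression filter, 11716 genes), and calls needed both an unadjusted p below 0.05 and a fold of at least 1.5, with Benjamini-Hochberg adjusted p beside it. Single genes were also compared by two-sided exact permutation of log2 CPM (prior count 2), without adjustment over the 10. Correlations used log2 CPM minus the group mean and 100000 permutations within groups. The fit was tested on simulated data. Promoter windows came from RefSeq (GRCr8). The alternatives used DESeq2 1.42.0, limma 3.58.1 (voom), other scalings, filters and thresholds, and left out libraries.

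All 10 genes, called genes of the other lists and each gene's 3 closest partners are named. The 10 genes and the lists were chosen with earlier results of these data known. Precision is limited by the library totals given in the report.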

Additional observations from a re-analysis of the deposited data

Results flagged for a closer look

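Tsc22d3 in CHEMO FO 18 stood apart from the other 7 CHEMO FO samples, with 653 CPM against a group median of 180.6 CPM. Its gap to the nearest sample took 0.681 of the group's range by Dixon's ratio. Of the 30 sets of samples examined (10 genes in 3 groups), 1 was flagged, and chance flags about 1 in 20. Without this sample the log2 fold change of Tsc22d3 in CHEMO FO versus TUMOUR STD was 0.37 in place of 0.74. The same sample had the lowest summed level of skeletal muscle genes and the highest of macrophage genes in its group, and the part of either in the level of Tsc22d3 was not tested.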

How the results depend on the processing

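Zbtb16 and Cebpd in CHEMO FO versus TUMOUR STD were called by edgeR whichever single library was left out, with log2 fold changes from 0.704 to 0.96 and from 0.991 to 1.8. Tsc22d3 ranged from 0.371 to 0.831 there, its call being lost without CHEMO FO 18, and Glul in CHEMO FO versus CHEMO STD ranged from 0.481 to 0.82, its call being lost in 5 of 20 omissions. With single libraries left out, 0 to 1 of the 10 genes were called in CHEMO STD versus TUMOUR STD, 0 to 3 in CHEMO FO versus CHEMO STD (3 without CHEMO FO 13) and 2 to 6 in CHEMO FO versus TUMOUR STD (2 without CHEMO FO 18, 6 without TUMOUR STD 10).

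In CHEMO STD versus TUMOUR STD, 1 gene was called in place of 0 with DESeq2 on only these groups, with CHEMO STD 1 and 2 kept as 2 libraries, with only these groups in the fit, and without CHEMO FO 18 and TUMOUR STD 10. For CHEMO FO versus CHEMO STD, 0 were called in place of 1 with DESeq2 on all groups, with voom, without CHEMO FO 18 and TUMOUR STD 10, and at a fold of at least 2. There were 2 by p alone, and 3 with CHEMO STD 1 and 2 both left out (Zbtb16, Glul and Cebpd). For CHEMO FO versus TUMOUR STD, 1 was called in place of 3 with voom and at a fold of at least 2, Cebpd in both settings. With voom Zbtb16 was at 0.556 and Tsc22d3 at 0.342, and neither was called. The pairs past an adjusted Pearson p numbered 19, 10 without CHEMO FO 18, and 3 without CHEMO STD 1 and 2 as well. The causes were not tested.

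Directions reversed under these settings only for log2 fold changes that were not called. In CHEMO STD versus TUMOUR STD, Glul became 0.0847 with voom, 0.0266 with both libraries kept and 0.103 without CHEMO FO 18 and TUMOUR STD 10 (-0.186 to 0.15 over omissions), Klf15 became 0.0264 with both kept (-0.148 to 0.0641 over omissions), and Ddit4 -0.0946 with both left out. For CHEMO FO versus CHEMO STD, Fkbp5 became -0.0706 with voom and Cebpd -0.00132 without CHEMO FO 18 and TUMOUR STD 10. In CHEMO FO versus TUMOUR STD, Nr3c1 became 0.00351 and 0.00439 with DESeq2 on all and on the compared groups, 0.00337 with RLE factors, 0.00135 with both kept and 0.00151 with both left out (-0.156 to 0.116 over omissions). Hsd11b1 became -0.0399 with voom and -0.053 without CHEMO FO 18 and TUMOUR STD 10 (-0.0214 to 0.325 over omissions), and Klf15 -0.0417 and -0.066 (-0.0405 to 0.235 over omissions). In the exact tests without CHEMO FO 18, the differences of Klf15 became -0.00564 against CHEMO STD and -0.0873 against TUMOUR STD, and that of Zbtb16 against TUMOUR STD was 0.652 and no longer passed. The settings without 2 named samples and the exact tests without CHEMO FO 18 were chosen after seeing the data. No paired analysis was possible because the groups share no replicate numbers. Ddit4, with as few as 2 counts in a sample, is the gene most limited by depth.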

Other observations

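Immediate early genes, which respond within minutes to stress, handling and activity, were counted because several of them are induced along with glucocorticoid targets. In CHEMO STD versus TUMOUR STD, Fos (log2 fold change -1.04, SE 0.297) and Egr1 (-0.98, SE 0.274) fell among 12 tested, by edgeR at the unadjusted thresholds. Of all tested genes, 1.45% fell there. By edgeR the smallest adjusted p over all tested genes was 0.652 there. It was 0.974 in CHEMO FO versus CHEMO STD and 0.426 in CHEMO FO versus TUMOUR STD. All 12 were higher in CHEMO FO than in CHEMO STD, with a median of 0.42, where 5701 of all 11716 tested genes were higher. Of the 12, 3 rose at the thresholds (0.615% of all tested genes): Fos (1.23), the mRNA-decay factor Zfp36 (0.90) and the small Maf factor Maff (1.26). Maff (1.40) also rose in CHEMO FO versus TUMOUR STD, where 1.09% of all tested genes did. Without CHEMO FO 18, a setting chosen after seeing the data, 11 of the 12 were higher than in CHEMO STD. Fos (1.05) was the only call there (1.47% of all tested genes were called), Zfp36 being at 0.71 and Maff at 0.0752. Against TUMOUR STD, Maff was at 0.217 in that setting and not called.

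Of 17 tested clock and clock output genes, Arntl, which encodes the activator BMAL1, rose in CHEMO STD versus TUMOUR STD (0.95) at the unadjusted thresholds. The repressor and output genes Per3 (-0.70), Dbp (-1.19), Nr1d1 (-0.97) and Bhlhe40 (-0.65) fell there. Of all tested genes, 0.93% rose and 1.45% fell in that comparison (smallest adjusted p 0.652 by edgeR). Against TUMOUR STD, Arntl (1.07) and Nfil3 (1.43) rose in CHEMO FO and Per3 (-0.98), Dbp (-1.33), Nr1d1 (-0.80), Bhlhe40 (-0.65) and Bhlhe41 (-0.69) fell. Of all tested genes, 1.09% rose and 2.51% fell in CHEMO FO versus TUMOUR STD (smallest adjusted p 0.426 by edgeR). Nfil3 (0.93) alone passed in CHEMO FO versus CHEMO STD, where 0.615% of all rose and 1.05% fell (smallest adjusted p 0.974 by edgeR). When CHEMO FO 18 was left out, Nfil3 was at 0.433 against CHEMO STD and 0 of the 17 passed both thresholds by edgeR there, 1 (Cry2) having an unadjusted p below 0.05. Against TUMOUR STD the calls of Bhlhe40 (-0.524) and Bhlhe41 (-0.495) were lost and a call of Ciart, lower, was gained, while in CHEMO STD versus TUMOUR STD Bhlhe41 (-0.623) was added. Over all tested genes, the fit without CHEMO FO 18 called 2.66% in CHEMO STD versus TUMOUR STD. It called 1.47% in CHEMO FO versus CHEMO STD and 2.36% in CHEMO FO versus TUMOUR STD. These comparisons share groups, and the hour of collection is not given in the sources used here.

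The levels of the 10 genes were set against 5 properties of the samples, with group means removed, in 50 relations adjusted together. Hsd11b1 followed the summed skeletal muscle genes inversely over the 19 samples (r = -0.721, permutation adjusted p = 0.0025, rho = -0.733, adjusted p = 0.015, and r = -0.715 without the 2 farthest samples). Cebpd followed the summed immediate early genes (r = 0.733, permutation adjusted p = 0.0151, rho = 0.756, adjusted p = 0.015, and r = 0.692 without the 2 farthest samples), as did Ddit4 (r = 0.592, permutation adjusted p = 0.018, rho = 0.646, adjusted p = 0.0259, and r = 0.435 without the 2 farthest). With the same genes, Sgk1 passed by Spearman (rho = 0.779, permutation adjusted p = 0.015) and Nr3c1 (r = -0.563) and Glul (r = 0.588, adjusted p = 0.0154 for both by permutation) by Pearson. Cebpd also had r = 0.669 with the sample's total count (permutation adjusted p = 0.0154), where rho was 0.588 (adjusted p = 0.06) and r without the 2 farthest samples 0.421. For CHEMO STD 1+2 this total is the sum of 2 libraries. Sgk1 (r = 0.585, adjusted p = 0.0151), Klf15 (r = 0.575, adjusted p = 0.0272) and Tsc22d3 (r = 0.494, adjusted p = 0.0154, all by permutation) also passed with the total count by Pearson and not by Spearman. With the summed macrophage genes r was 0.775 for Sgk1, 0.771 for Cebpd, 0.767 for Glul, 0.668 for Klf15 and -0.683 for Nr3c1 (0.481, 0.518, 0.636, 0.41 and -0.626 without the 2 farthest samples), all past an adjusted permutation p of 0.05 by Pearson and none by Spearman.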
